A study of Cricetulus griseus with 40 samples.

Results

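RNA of CHO-S cells was compared between 84 h and 72 h after seeding, the first 12 h interval of a batch culture followed by sequencing. The members are the 8 libraries labelled with these times, 4 of 84 h and 4 of 72 h, out of 40 libraries at 10 times from 72 h to 180 h. CHO-S cells, which descend from Chinese hamster ovary, grow in suspension and serve as hosts for making recombinant proteins. Cells of both groups grew in the same protein-free medium (CD CHO) with L-glutamine, an anti-clumping agent and penicillin-streptomycin, in shake flasks to which nothing was added later. No treatment or genetic change separates the groups, and the labels differ between them in time alone. Per the design text there were 4 cultures, but the labels do not tie libraries to them. The p-values therefore measure the spread between libraries, pooled for each gene over all 10 times, which may be technical in part.

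In a batch culture cells first divide with ample nutrients and then slow as glutamine and other nutrients run down and waste products collect. Growth factor signalling through the EGF receptor and the kinase ERK switches on genes for its own ligands and for the proteins that damp it, so those genes report on pathway activity in many mammalian cells. Cells that leave the growth phase usually lower the genes of DNA replication and mitosis, and raise those of lysosomes and secreted factors.

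Few genes changed in these 12 h, and the changes were mostly small. Of 12259 genes tested, 91 (0.742%) were higher at 84 h and 70 (0.571%) were lower at 84 h by limma at a Benjamini-Hochberg adjusted p below 0.05. The secreted signals Il33 and Spp1, the small GTP-binding protein Gem and the protease Mmp10 rose at least 2-fold on the scale log2(FPKM + 1), where FPKM is a transcript level scaled to length and library size. The water channel Aqp1 fell at least 2-fold. Together with 2 genes without a symbol in each direction, these made up the 6 genes that rose and the 3 that fell by that much. The 4 libraries of 84 h all lay above the 4 of 72 h in 288 genes (2.35%) and all below them in 379 (3.09%), 667 genes (5.44%) in all. Among called genes the median log2 change was 0.46 for those higher and -0.38 for those lower, and the smallest called change was 0.20 in either direction. The median over all genes tested was -0.03, and 42.7% of them had a positive change. At an unadjusted p below 0.05 there were 1383 genes (11.3%).

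The number called depended on single libraries. It was 53 without replicate 4 of 72 h, 62 without replicate 3 of 72 h, 83 without replicate 2 of 84 h, 102 without replicate 3 of 84 h and 210 without replicate 1 of 84 h. Without replicate 4 of 84 h, 96 genes (0.783%) were higher and 38 (0.31%) lower. In all 8 fits that left out 1 library, 46 of the 161 genes (1.31% of those tested) were called, 27 of them higher and 19 lower. With the 8 libraries fitted alone, without the other times to estimate the spread, 2 genes were called, Il33 (adjusted p = 0.0467, limma) and Aqp1 (adjusted p = 0.00396, limma).

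**Figure D1:**
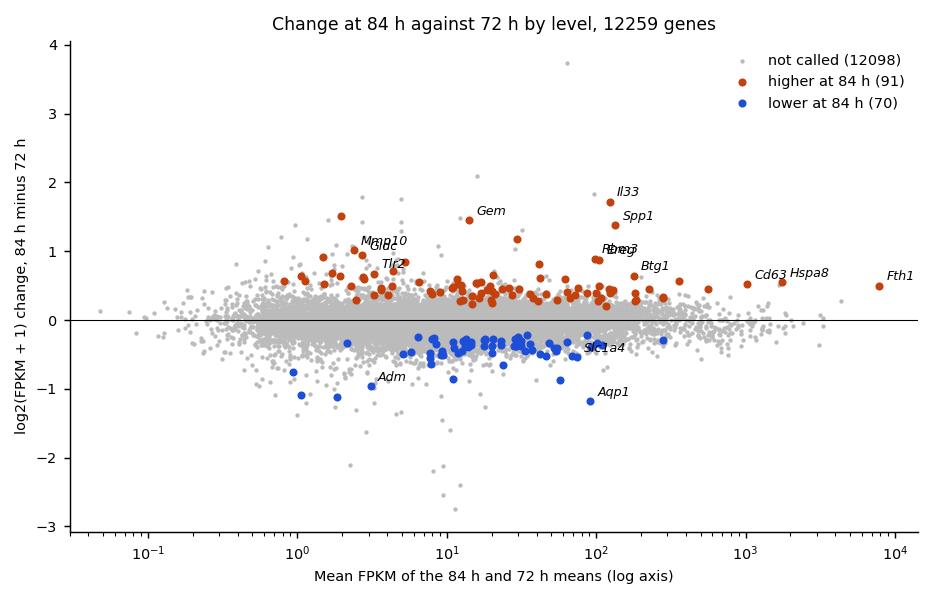
Each point is a gene, with the mean of its 84 h and 72 h FPKM on a log axis and its change in log2(FPKM + 1), 84 h minus 72 h, on the vertical axis. The 91 genes called higher (orange) and 70 called lower (blue) lie within a wide cloud of genes not called (grey), some of which have larger changes than any called gene.

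The 8 libraries were of similar size but not equally alike. Their FPKM summed to between 463992 and 530463, between 10904 and 11463 genes reached 1 FPKM, and their depth relative to the series lay between 0.856 and 0.959, while the absolute depth is unknown. Replicate 4 of 84 h stood apart: it correlated across genes with the other 84 h libraries at r between 0.911 and 0.958, the other 84 h libraries correlated with each other at r between 0.976 and 0.985, and the 72 h libraries did so between 0.974 and 0.987. It had the lowest FPKM sum and the fewest genes at 1 FPKM. The median SD of a gene over the 4 libraries was 0.253 at 84 h and 0.16 at 72 h on the log2 scale, and it lay between 0.149 and 0.265 at the later times. Vim, an intermediate filament gene of this line, had 518 to 636 FPKM at 84 h and 472 to 539 FPKM at 72 h, and Mgat3, St6gal1 and Epcam, known to be silent in these cells, were listed at 0. Of 26 markers of other cell types, 18 were listed at 0 in all 8 libraries, and the 26 summed to between 3.20 and 4.75 FPKM at 84 h and between 5.41 and 6.04 FPKM at 72 h. In bulk RNA, fewer cells in a state and less of a transcript per cell cannot be told apart.

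Libraries of the same time differed along a shared axis that was computed from the other 32 libraries and so did not use these 8. It held 51.5% of the variance within those times, and the next axis held 4.14%. On this axis, in SDs of those 32 libraries, the 84 h libraries scored 1.34, 0.465, -0.190 and -2.51 in replicates 1 to 4, and the 72 h libraries scored -0.505, -0.537, 1.08 and 0.860. The groups overlapped, with replicate 4 of 84 h lowest and replicate 1 of 84 h highest. The mean was -0.22 ± 1.65 at 84 h and 0.22 ± 0.86 at 72 h (SD, n = 4 each; exact permutation test, two-sided p = 0.686, the smallest possible being 0.0286). The difference of -0.45 turned to 0.31 without replicate 4 of 84 h. Low scores were not confined to that library. Relative to the mean of its own time, it scored -2.28, and replicate 1 of 96 h scored -2.75. From 96 h to 180 h the lowest library was replicate 1 and replicate 4 in turn, and the reason was not tested.

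**Figure D2:**
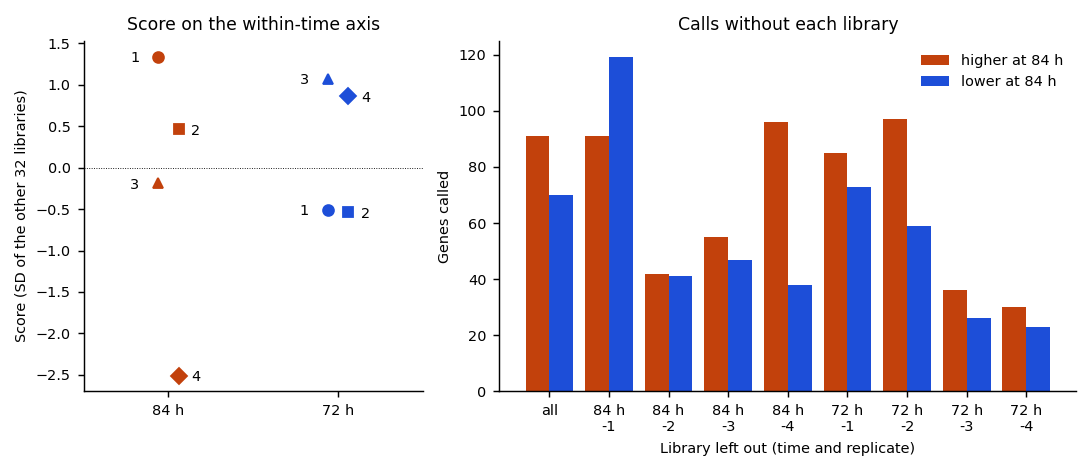
Left, the score of each library on the axis that separates libraries within a time (in SDs of the other 32 libraries; numbers are replicates), with replicate 4 of 84 h at -2.51. Right, the number of genes called higher (orange) and lower (blue) at 84 h with all libraries and without each one in turn; the lowest counts, 30 and 23, came without replicate 4 of 72 h.

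Among called genes the secreted signal Il33 had the largest rise. Il33, an alarmin cytokine of the interleukin-1 family, had 181, 204, 176 and 196 FPKM in replicates 1 to 4 of 84 h, against 68.7, 71.6, 48.5 and 43.1 FPKM in those of 72 h. Every 84 h library was above every 72 h library, and the 84 h values lay close together. The log2 change was 1.72 ± 0.16 (SE, adjusted p = 3.08e-08, limma). Spp1, which encodes osteopontin, a secreted phosphoprotein that binds integrins, had 211, 230, 169 and 161 FPKM at 84 h and 89.9, 87.6, 83.8 and 42.5 FPKM at 72 h. The groups did not overlap, and replicate 4 of 72 h was far below the other 72 h libraries. Spp1 rose by 1.38 ± 0.20 (SE, adjusted p = 1.17e-04, limma). Adm, the vasoactive peptide adrenomedullin, went the other way, with 1.68, 2.64, 2.16 and 0.691 FPKM at 84 h and 3.27, 2.93, 5.59 and 5.86 FPKM at 72 h. It was lower in every 84 h library, lowest in replicate 4, with a log2 change of -0.96 ± 0.20 (SE, adjusted p = 0.00870, limma). Its adjusted p was 0.0542 without replicate 4 of 84 h, 0.0595 without replicate 3 of 72 h and 0.0752 without replicate 4 of 72 h. Of 23 cytokines, chemokines and secreted signals tested, these 3 passed, beside 1.31% of all genes, and the median change of the list was 0.07. The median was 0.22, with 17 positive changes against 15, without replicate 4 of 84 h, and it was -0.04 without replicate 1 and -0.01 without replicate 2 of 84 h. Over all genes the median without replicate 4 of 84 h was 0.02.

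Stromelysins rose with them. Mmp10, a matrix metalloproteinase that cleaves many matrix proteins, had 3.86, 4.36, 3.10 and 2.79 FPKM at 84 h and 1.56, 1.34, 0.981 and 1.05 FPKM at 72 h. The groups did not overlap, at a low level, and the log2 change was 1.01 ± 0.15 (SE, adjusted p = 9.72e-05, limma). Mmp3, its close relative, had 15.6, 16.8, 15.9 and 9.80 FPKM at 84 h and 9.63, 9.63, 8.84 and 8.13 FPKM at 72 h. Replicate 4 of 84 h was barely above the 72 h libraries. Mmp3 rose by 0.60 ± 0.13 (SE, adjusted p = 0.00842, limma), and its adjusted p was 0.0569 without replicate 4 of 72 h and 0.0562 without replicate 2 of 84 h. Of 16 matrix metalloproteinases, related proteases and their inhibitors tested, these 2 passed, beside 0.742% called higher over all genes. Of the 16, 13 had a positive change and the median was 0.15. In the fit without replicate 4 of 84 h, 5 passed, all higher, beside 0.783% called higher over all genes. In that fit 15 had a positive change and the median was 0.33, while it was 0.07 without replicate 1 or replicate 2 of 84 h. The per-library list median, relative to the 72 h mean, was 0.49, 0.34, 0.15 and -0.07 in replicates 1 to 4 of 84 h. It thus fell to the 72 h level in replicate 4, the library that scored lowest on the within-time axis, and the part of that axis in this list was not tested.

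**Figure D3:**
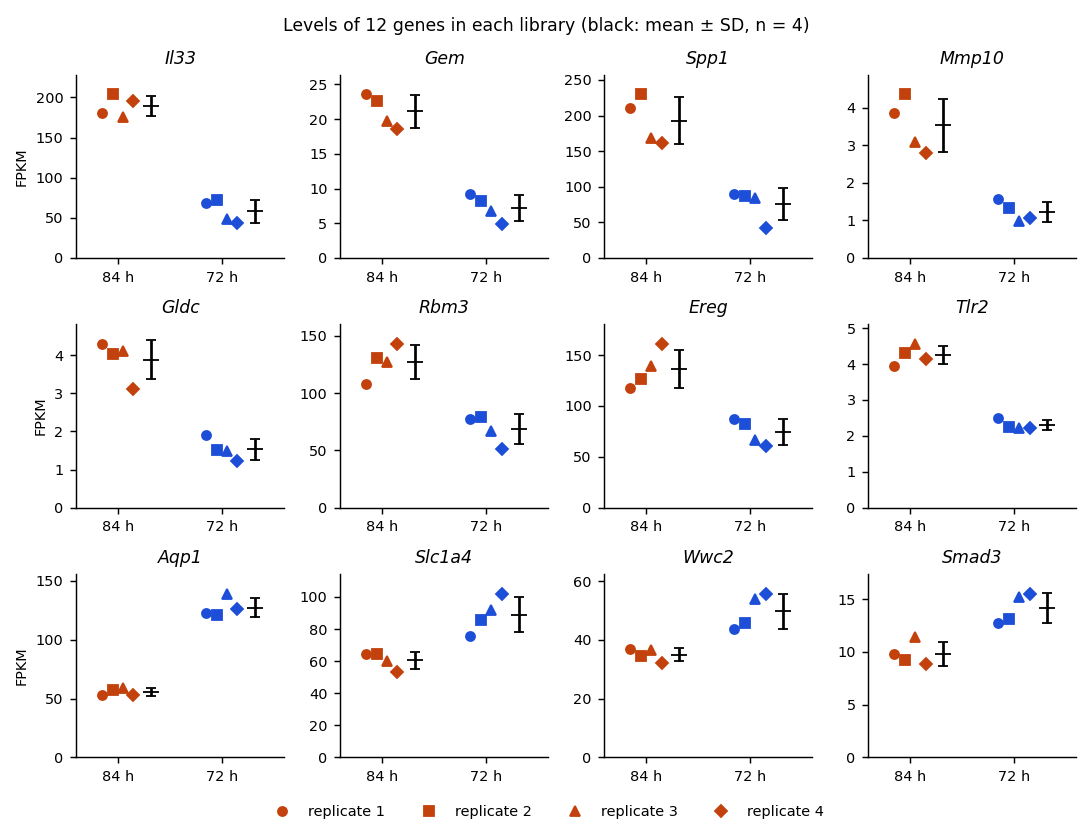
FPKM of 12 genes in each library at 84 h (orange, left) and 72 h (blue, right), with marker shapes for replicates 1 to 4 and the mean ± SD of 4 libraries in black. In each of the 12 panels the 84 h libraries lie all above or all below the 72 h libraries, as for Il33 (176 to 204 against 43.1 to 71.6) and Aqp1 (52.8 to 59.2 against 121 to 139).

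Genes of the EGF receptor and ERK pathway made up the list with the most called members, 5 of 17, all higher, beside 0.742% called higher over all genes. Ereg, the ligand epiregulin, had 118, 127, 139 and 161 FPKM in replicates 1 to 4 of 84 h and 87.4, 82.0, 66.1 and 60.4 FPKM in those of 72 h. No libraries overlapped, and the log2 change was 0.88 ± 0.13 (SE, adjusted p = 9.75e-05, limma). Areg, the ligand amphiregulin, had 41.3, 47.3, 52.7 and 64.2 FPKM at 84 h and 41.2, 38.0, 28.7 and 25.6 FPKM at 72 h. The 2 groups nearly met, at replicate 1 of each. The log2 change of Areg was 0.61 ± 0.15 (SE, adjusted p = 0.0243, limma), and the call was lost without replicate 3 or 4 of either time, with an adjusted p of 0.122 and 0.173 for those of 72 h and 0.0682 and 0.101 for those of 84 h.

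Inhibitors of the same pathway rose beside its ligands. Spry2, which restrains signalling from growth factor receptors to ERK, averaged 23.2 ± 2.11 FPKM at 84 h and 17.1 ± 1.88 FPKM at 72 h (SD, n = 4 each), a log2 change of 0.42 ± 0.07 (SE, adjusted p = 8.24e-04, limma). Dusp6, the phosphatase that inactivates ERK, averaged 10.3 ± 0.546 FPKM at 84 h and 7.57 ± 0.726 FPKM at 72 h, a change of 0.41 ± 0.09 (adjusted p = 0.0109, limma). The Dusp6 call was lost without replicate 4 of 72 h (adjusted p = 0.0932) and without replicate 2 of 84 h (adjusted p = 0.0532). Errfi1, an inhibitor of the EGF receptor, averaged 81.3 ± 10.0 FPKM at 84 h and 62.9 ± 6.59 FPKM at 72 h, with groups that overlapped and a change of 0.36 ± 0.09 (adjusted p = 0.0239, limma). The Errfi1 call was lost without replicates 3 (0.105) or 4 (0.164) of 72 h and without replicates 1 (0.0554), 2 (0.0936) or 3 (0.0928) of 84 h. The other 12 members did not pass. They lay between Spred2, a Sprouty-related inhibitor, at -0.22 and Hbegf, another ligand of the receptor, at 0.40 (adjusted p = 0.162, limma), and the median of all 17 was 0.13. The list median was 0.27 without replicate 4 and 0.06 without replicate 1 of 84 h, and the count of called members was 2 without replicate 4 of 72 h and 3 without replicate 3 of 72 h, 2 of 84 h or 3 of 84 h. The phosphatase gene Dusp4 had lower values in every 84 h library, averaging 9.68 ± 0.431 FPKM at 84 h and 11.0 ± 0.482 FPKM at 72 h, and did not pass (adjusted p = 0.203, limma). Errfi1, Spred2, Hbegf and Dusp4 were picked for naming after their values were seen.

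Immediate early genes, which growth factors switch on within minutes, had 2 called members of 21 tested, both higher, beside 0.742% called higher over all genes. They were Klf6, a zinc finger factor, at 0.29 ± 0.08 (adjusted p = 0.0450, limma) and Egr2, another, at 0.57 ± 0.15 (adjusted p = 0.0441, limma). Both calls were lost without replicate 3 or 4 of 72 h, with an adjusted p of 0.171 and 0.274 for Klf6 and 0.114 and 0.209 for Egr2. Egr2 was also lost without replicate 1 of 72 h (0.0839) and replicates 1 (0.0930), 2 (0.127) or 3 (0.0884) of 84 h, and Klf6 without replicates 1 (0.0576), 2 (0.154) or 3 (0.138) of 84 h. Egr1, a target of ERK in many cells, had 16.5, 15.2, 14.7 and 10.8 FPKM at 84 h and 12.9, 10.2, 8.96 and 8.15 FPKM at 72 h. Its groups overlapped and it did not pass (adjusted p = 0.250, limma). Of the 21 changes 10 were positive with all libraries, and 19 were positive without replicate 4 of 84 h, with a median of 0.12. With array weights, under which the 84 h mean rested mostly on replicate 2, 17 were positive and the median was 0.15.

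**Figure D4:**
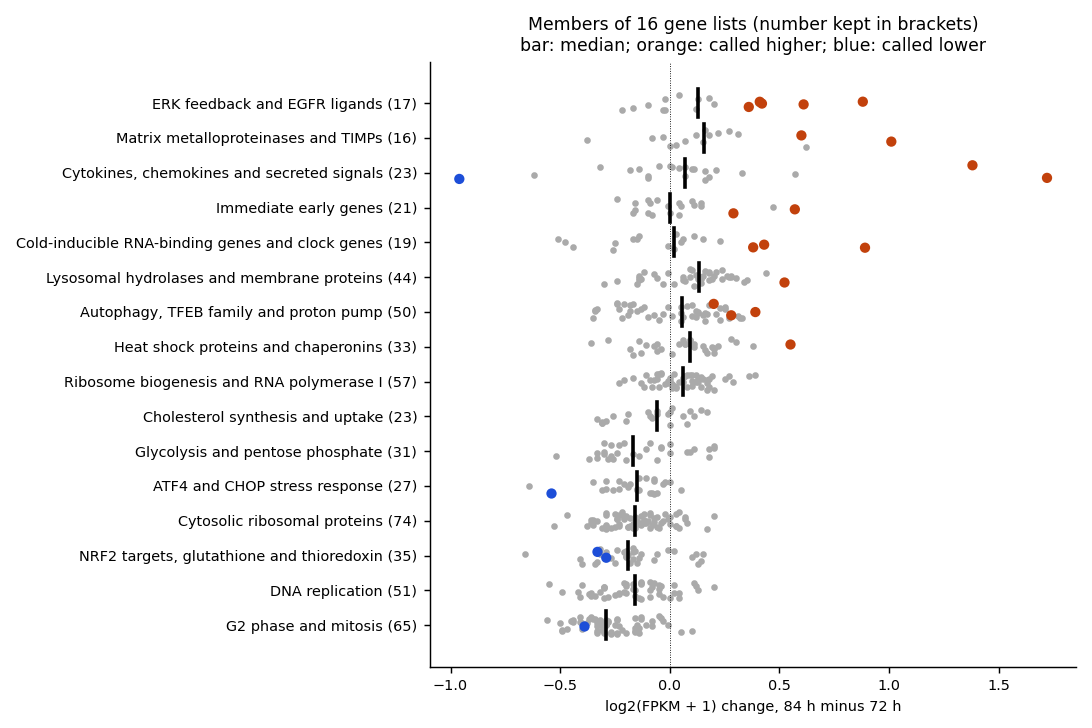
Change of each member of 16 gene lists in log2(FPKM + 1), 84 h minus 72 h, with the list median as a black bar and called members in orange (higher) or blue (lower). The list of ERK feedback and EGFR ligands has the most called members, 5 of 17. G2 phase and mitosis has 63 of 65 members below 0 and 1 called.

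Other genes of cell signalling changed in both directions. Gem, a small GTP-binding protein that inhibits calcium channels, had 23.6, 22.6, 19.7 and 18.6 FPKM at 84 h and 9.19, 8.18, 6.70 and 4.89 FPKM at 72 h. Every 84 h library was far above every 72 h library, and the log2 change was 1.45 ± 0.12 (SE, adjusted p = 3.75e-09, limma). Tlr2, the receptor for bacterial lipoproteins, had 3.96, 4.32, 4.56 and 4.15 FPKM at 84 h and 2.50, 2.25, 2.22 and 2.21 FPKM at 72 h, and rose by 0.67 ± 0.10 (SE, adjusted p = 9.75e-05, limma). Ccn2, a matrix-associated growth factor controlled by YAP and TGF-beta, averaged 14.3 ± 0.482 FPKM at 84 h and 9.67 ± 0.664 FPKM at 72 h and rose by 0.52 ± 0.08 (adjusted p = 1.97e-04, limma). It was the 1 called gene of 19 YAP and TGF-beta targets tested, beside 0.742% called higher over all genes. Of the 19, 10 had a positive and 9 a negative change, with a median of 0.03. Smad3, which carries the TGF-beta signal to the nucleus, had 9.83, 9.24, 11.4 and 8.84 FPKM at 84 h and 12.7, 13.1, 15.2 and 15.5 FPKM at 72 h. It was lower in every 84 h library, by -0.48 ± 0.08 on the log2 scale (SE, adjusted p = 4.37e-04, limma). Wwc2, a regulator of the Hippo pathway, had 36.8, 34.6, 36.4 and 32.3 FPKM at 84 h and 43.6, 45.9, 54.0 and 55.7 FPKM at 72 h, and its log2 change was -0.49 ± 0.06 (SE, adjusted p = 7.18e-06, limma).

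RNA-binding proteins of the cold response and a chaperone rose. Rbm3, an RNA-binding protein induced by mild cold, had 108, 131, 127 and 143 FPKM at 84 h and 77.8, 79.4, 67.3 and 51.1 FPKM at 72 h. The groups did not overlap, and the log2 change was 0.89 ± 0.11 (SE, adjusted p = 3.71e-06, limma). Cirbp, its relative, had 22.5, 24.3, 25.0 and 24.6 FPKM at 84 h and 17.6, 19.2, 19.5 and 16.9 FPKM at 72 h, a change of 0.38 ± 0.09 (SE, adjusted p = 0.0331, limma). The Cirbp call held without replicate 2 of 72 h and without replicate 1 of 84 h, and its adjusted p was between 0.0572 and 0.168 without any of the other 6 libraries. Of 19 cold-inducible and clock genes tested, 3 passed, all higher, beside 0.742% called higher over all genes. The third was Bhlhe40, a repressor of the clock, at 0.43 ± 0.11 with overlapping groups (adjusted p = 0.0452, limma). The Bhlhe40 call was lost without any of 7 libraries, with an adjusted p of 0.0618 to 0.273, and held without replicate 4 of 84 h. The list median was 0.02. The culture temperature was the same for all groups per the labels' protocols. Hspa8, the constitutive chaperone of the Hsp70 family, had 1916, 2180, 2081 and 2196 FPKM at 84 h and 1529, 1562, 1343 and 1287 FPKM at 72 h. It was higher in every 84 h library, by 0.55 ± 0.10 (SE, adjusted p = 0.00199, limma). Hspa8 was the 1 called gene of 33 heat shock proteins and chaperonins, beside 0.742% called higher over all genes.

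Transporters were called in both directions, and those given here fell. Aqp1, a water channel of the plasma membrane, had 53.1, 57.4, 59.2 and 52.8 FPKM in replicates 1 to 4 of 84 h and 123, 121, 139 and 126 FPKM in those of 72 h. The groups were far apart and each was tight, and the log2 change was -1.18 ± 0.11 (SE, adjusted p = 3.31e-08, limma). Slc1a4, a transporter of alanine, serine and other neutral amino acids, had 64.3, 64.6, 60.4 and 53 FPKM at 84 h and 75.9, 85.5, 91.9 and 102 FPKM at 72 h. Its groups did not overlap and its log2 change was -0.54 ± 0.08 (SE, adjusted p = 1.17e-04, limma). It was the 1 called gene in each of 3 lists, beside 0.571% called lower over all genes. The lists were glutamine and glutamate handling (16 tested), amino acid and nutrient transporters (20 tested) and ATF4 and CHOP stress response (27 tested). In the ATF4 and CHOP list 26 changes were negative and the median was -0.15. Without replicate 4 of 84 h, the ATF4 and CHOP list had 14 negative changes of 27 and a median of -0.01. Asns, the asparagine synthetase that ATF4 induces when amino acids run short, averaged 32.6 ± 4.07 FPKM at 84 h and 33.0 ± 2.01 FPKM at 72 h (SD, n = 4 each), and its change of -0.02 ± 0.07 did not pass (adjusted p = 0.950, limma).

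Enzymes moved both ways. Gldc, the decarboxylase of the glycine cleavage system, had 4.29, 4.02, 4.10 and 3.12 FPKM at 84 h and 1.90, 1.52, 1.49 and 1.23 FPKM at 72 h, and rose by 0.95 ± 0.11 (SE, adjusted p = 1.64e-06, limma). It was the 1 called gene of 18 for serine, glycine and one-carbon enzymes, beside 0.742% called higher over all genes. The median of that list was -0.05. Acad11, an acyl-CoA dehydrogenase, had 6.50, 7.53, 6.13 and 5.21 FPKM at 84 h and 9.22, 8.83, 9.71 and 8.85 FPKM at 72 h, a log2 change of -0.48 ± 0.08 (SE, adjusted p = 4.66e-04, limma). Galm, the galactose mutarotase, averaged 20.0 ± 0.896 FPKM at 84 h and 26.1 ± 1.40 FPKM at 72 h, a change of -0.37 ± 0.06 (adjusted p = 4.66e-04, limma). Of 35 NRF2 targets and genes of the glutathione and thioredoxin systems, 2 passed, both lower, beside 0.571% called lower over all genes. They were Txnrd1, a thioredoxin reductase, with 251 ± 10.5 FPKM at 84 h and 306 ± 18.6 FPKM at 72 h (adjusted p = 0.00433, limma), and Abcc4, an efflux transporter, with 42.7 ± 0.783 FPKM at 84 h and 54.0 ± 3.46 FPKM at 72 h (adjusted p = 0.00425, limma). The list median was -0.19 with all libraries and -0.02 without replicate 4 of 84 h.

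Cd63 of lysosomes and Fth1 of iron storage were abundant transcripts that rose. Cd63, a membrane protein of late endosomes and lysosomes, had 1222, 1269, 1138 and 1213 FPKM at 84 h and 969, 935, 828 and 673 FPKM at 72 h. It was higher in every 84 h library and rose by 0.52 ± 0.09 (SE, adjusted p = 0.00168, limma). It was the 1 called gene of 44 lysosomal hydrolases and membrane proteins, beside 0.742% called higher over all genes. Of the 44, 32 had a positive change and the median was 0.13. Without replicate 4 of 84 h, 42 of the 44 had a positive change, the median was 0.25 and 3 passed. With array weights 25 of the 44 were higher and 1 lower. With the within-time axis score as a covariate 15 were higher and none lower. Over all genes 914 (7.46%) were higher with the weights and 537 (4.38%) with the covariate. Ctsb, the lysosomal protease cathepsin B, had 528, 555, 462 and 314 FPKM at 84 h and 369, 370, 368 and 325 FPKM at 72 h, and did not pass (adjusted p = 0.178, limma), with replicate 4 of 84 h below all 72 h libraries. Of 50 genes of autophagy, the TFEB family and the proton pump, 3 passed, all higher, beside 0.742% called higher over all genes. They were the pump subunits Atp6v1g1 (0.39 ± 0.10) and Atp6v1d (0.28 ± 0.06), and Rragc (0.20 ± 0.05), a GTPase that reports amino acids to mTORC1. All 3 calls were lost without replicate 4 of 72 h, with an adjusted p of 0.250 for Atp6v1g1, 0.128 for Atp6v1d and 0.168 for Rragc. They were also lost without replicate 3 of 72 h (0.0572, 0.0661 and 0.0797 in that order) and replicate 2 of 84 h (0.113, 0.0601 and 0.0882). Atp6v1g1 was further lost without replicate 3 (0.0549) or 4 (0.0834) of 84 h, and Rragc without replicate 1 of 72 h (0.0507) or replicate 4 of 84 h (0.0760). Fth1, the heavy chain of the iron store ferritin, was the most abundant of the genes named here, with 9899, 10779, 9225 and 6989 FPKM at 84 h and 7099, 7260, 6109 and 5473 FPKM at 72 h. Its groups overlapped through replicate 4 of 84 h, it rose by 0.50 ± 0.10 (SE, adjusted p = 0.00610, limma), and its adjusted p was 0.0566 without replicate 4 of 72 h. Fth1 was the 1 called gene of 20 for iron uptake, storage and export, beside 0.742% called higher over all genes. Of the 20, 10 had a positive and 10 a negative change, with a median of 0.00. Without replicate 4 of 84 h, 13 were positive and the median was 0.04.

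Genes of cell division had lower means at 84 h, but hardly any passed. Of 65 genes of G2 phase and mitosis, 63 had a negative change, and the median was -0.29 beside -0.03 over all genes. Of the 65, 1 passed, beside 0.571% called lower over all genes. In 13 of the 65 every 84 h library lay below every 72 h library, against 379 (3.09%) of all genes tested. The passing gene was Cdca3, a protein that promotes entry into mitosis, with 85.5, 79.8, 83.1 and 71.1 FPKM at 84 h and 104, 111, 102 and 101 FPKM at 72 h (log2 change -0.39 ± 0.10, adjusted p = 0.0491, limma). Its groups did not overlap, yet the call held without replicate 1 of 84 h alone, and without any other of the 8 libraries its adjusted p was 0.0792 to 0.156. Mki67, the proliferation marker Ki-67, had 45.1, 36.8, 52.9 and 68.3 FPKM at 84 h and 69.7, 72.5, 67.7 and 85.8 FPKM at 72 h, and did not pass (-0.56 ± 0.18, adjusted p = 0.123, limma). Top2a, the topoisomerase of dividing cells, had 163, 177, 209 and 288 FPKM at 84 h and 252, 272, 225 and 241 FPKM at 72 h. In Top2a as in Mki67, replicate 4 was the highest of the 84 h libraries. The list median relative to the 72 h mean was -0.43, -0.34, -0.19 and 0.05 in replicates 1 to 4 of 84 h, and between -0.06 and 0.07 in the 72 h libraries. Among the 84 h libraries the list median ran opposite to the score on the within-time axis, whose part in it was not tested.

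The count for mitosis moved with the treatment of the libraries, as did those of other lists. With the axis score as a covariate, 40 of the 65 were lower and none higher, beside 814 (6.64%) lower and 537 (4.38%) higher over all genes. Array weights were 0.601, 6.42, 0.920 and 0.091 for replicates 1 to 4 of 84 h, so their weighted mean rested mostly on replicate 2. With these weights 44 were lower and none higher, beside 902 (7.36%) lower and 914 (7.46%) higher over all genes. Without replicate 4 of 84 h all 65 changes were negative and 2 passed. At an unadjusted p below 0.05, 32 of the 65 were lower with all libraries and none was higher, beside 786 (6.41%) lower and 597 (4.87%) higher over all genes. The list median was -0.30 with the covariate and -0.35 with the weights. DNA replication had 42 negative changes of 51, a median of -0.16 and none called by limma (7 lower at an unadjusted p below 0.05), with 10 lower under the covariate and 8 under the weights. The median of this list was -0.09 without replicate 4 of 84 h, and also without replicate 1 of 84 h. Of 47 genes of DNA repair and damage checkpoint, 13 were lower with the covariate and 12 with the weights, and none was higher. Of the 17 EGF receptor and ERK genes, 7 were higher and 1 lower with the covariate. With the weights 10 of those 17 were higher and none lower. Pcna, the sliding clamp of DNA polymerases, averaged 195 ± 36.3 FPKM at 84 h and 190 ± 9.99 FPKM at 72 h (SD, n = 4 each). Ccnb1, the mitotic cyclin B1, averaged 135 ± 28.0 FPKM at 84 h and 144 ± 13.5 FPKM at 72 h. Both differences were smaller than the SD at 84 h.

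Some genes followed the within-time axis and spread widely at 84 h. Gapdh, a glycolytic enzyme, had 4856, 3438, 2634 and 814 FPKM in replicates 1 to 4 of 84 h and 2264, 2363, 4564 and 4069 FPKM in those of 72 h. Actb, beta-actin, had 2610, 2354, 1904 and 915 FPKM at 84 h and 1444, 1470, 2001 and 1895 FPKM at 72 h. In both genes the 84 h libraries surrounded the 72 h ones, and neither passed (adjusted p = 0.838 for Gapdh and 0.930 for Actb, limma). Ccnd1, the cyclin that couples growth factors to the cell cycle, had 72.5, 52.0, 36.6 and 13.0 FPKM at 84 h and 26.7, 28.0, 49.2 and 43.9 FPKM at 72 h (adjusted p = 0.984, limma). Myc, a growth-promoting transcription factor, had 8.44, 5.75, 3.31 and 1.91 FPKM at 84 h and 3.71, 3.68, 9.40 and 8.32 FPKM at 72 h (adjusted p = 0.858, limma). The SE of the log2 change was 0.44 for Gapdh and 0.48 for Myc, against 0.12 for Gem, so a change near the median called rise of 0.46 was about as large as its SE in these genes. No member of the lists of 31 glycolysis and pentose phosphate genes, 74 ribosomal proteins, 57 ribosome biogenesis genes, 43 proteasome genes, 40 endoplasmic reticulum chaperone and degradation genes or 23 cholesterol genes passed in limma with all libraries. At an unadjusted p below 0.05 these lists held 3, 1, 6, 3, 2 and 1 genes in that order, beside 11.3% of all genes tested. Of these, 1, 0, 6, 2, 0 and 0 were higher, beside 4.87% of all genes. Over all 48 lists, with 1411 members tested, 26 held at least 1 called gene. A share of lists cannot be set against the 1.31% of all genes called, because each list holds many genes. Some called genes, such as Slc1a4, stand in more than 1 list. Hmgcs1, an enzyme of cholesterol synthesis, averaged 709 ± 82.8 FPKM at 84 h and 708 ± 67.4 FPKM at 72 h.

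The interval was then set against the later pace of the culture, to ask which genes moved more, or the other way, from 72 h to 84 h than in the mean 12 h step between 96 h and 180 h. The first step and the later steps share no library. The difference was above 0 for 50 genes (0.408%) and below 0 for 38 genes (0.31%), and 78 of these 88 (0.718%) were also called at 84 h against 72 h. The difference contains that same step, so this overlap was partly fixed in advance. Il33 had a first step of 1.72 and a mean later step of 0.06, a difference of 1.67 ± 0.17 (SE, adjusted p = 9.13e-08, limma). Its mean level was 58.0 FPKM at 72 h, then 189 at 84 h, 260 by 96 h and 344 by 108 h, and it stayed between 332 and 405. Gem had 7.24, 21.1, 31.1 and 48.8 FPKM at these times and 66.7 at 180 h, and its difference was 1.29 (adjusted p = 9.13e-08, limma). Gldc had 1.53, 3.88, 5.65 and 8.70 FPKM and no mean above that later, with a difference of 0.89 (adjusted p = 6.22e-06, limma). These 3 genes thus made most of their rise by 108 h. Spp1 kept rising to the end: it averaged 75.9 FPKM at 72 h, 193 at 84 h, 424 at 96 h and, in the last sample, 4656, with a mean later step of 0.50. Its difference of 0.87 (adjusted p = 0.0342, limma) was lost without replicate 3 (0.0598) or 4 (0.253) of 72 h and without replicates 1 (0.0568), 2 (0.118) or 3 (0.0554) of 84 h.

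Falls were also concentrated in the first step for some genes. Aqp1 averaged 127 FPKM at 72 h, 55.6 at 84 h, 60.6 at 96 h and, in the last sample, 24.0, and its difference was -0.99 (adjusted p = 2.09e-06, limma). Slc1a4 averaged 88.7, 60.6, 63.6 and 44.8 FPKM at these times, with a difference of -0.47 (adjusted p = 0.00164, limma). Acad11 averaged 9.15, 6.34, 7.49 and 8.02 FPKM at these times, so its later mean step was 0.01 and its difference -0.49 (adjusted p = 6.11e-04, limma). Of the 65 genes of G2 phase and mitosis none was called in this contrast by limma, and 1 was above 0 and none below 0 at an unadjusted p below 0.05. Their median was -0.29 for the first step and -0.27 for the mean later step, and the median difference of -0.01 stood beside -0.02 over all genes. Cdca3 had a first step of -0.39 and a mean later step of -0.30, and the difference of -0.09 did not pass (adjusted p = 0.781, limma). The number of genes in this contrast was 31 without replicate 4 of 72 h, 38 without replicate 3 of 72 h, 47 without replicate 2 of 84 h, 46 without replicate 3 of 84 h and 159 without replicate 1 of 84 h. Without replicate 4 of 84 h, 20 genes were below 0.

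**Figure D5:**
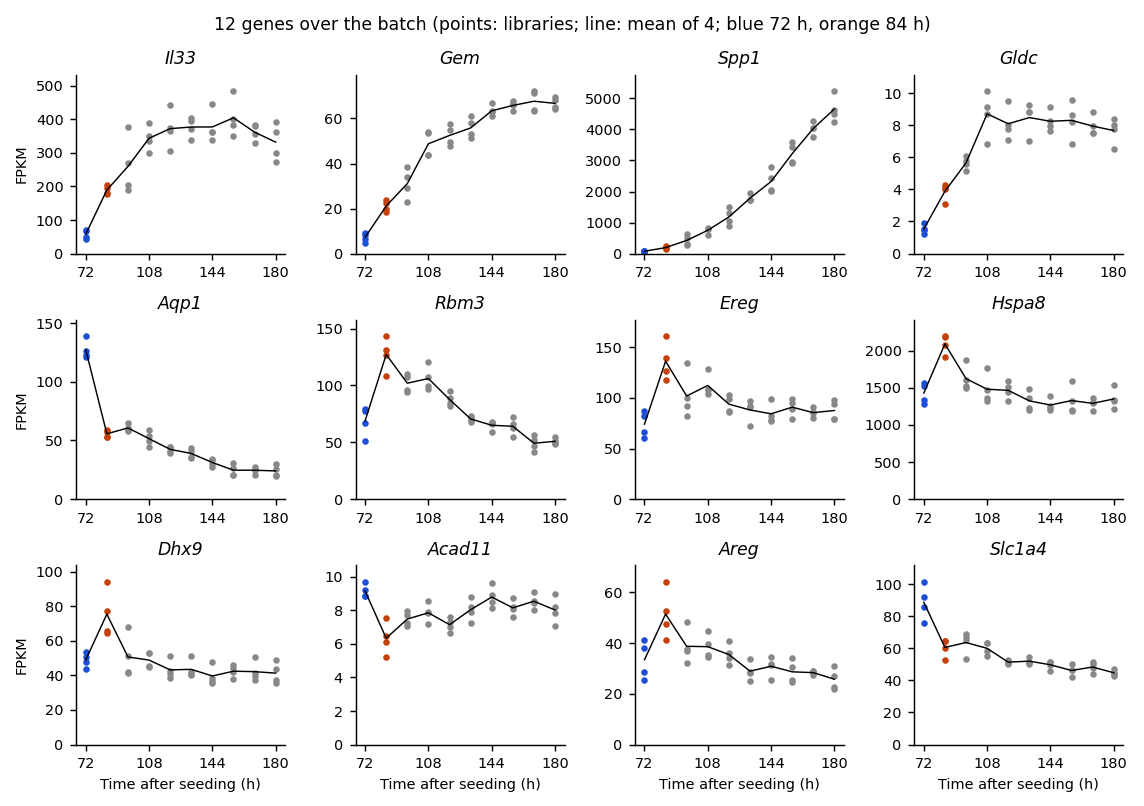
FPKM of 12 genes at the 10 times after seeding, from 72 h to 180 h (points: libraries, 72 h in blue, 84 h in orange; line: mean of 4). Il33, Gem and Gldc climb steeply at the start and level off, Spp1 climbs to 4656 at 180 h, Aqp1 drops to 55.6 at 84 h, and Rbm3, Ereg and Hspa8 have their highest mean at 84 h.

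A few genes differed at 84 h from the mean of both neighbouring times. Set against the mean of 72 h and 96 h, 8 genes (0.0653%) were higher at 84 h and 5 (0.0408%) were lower, 13 (0.106%) in all, with the 84 h mean also beyond the mean of each neighbour. The contrast does not test 84 h against 96 h alone. Rbm3 averaged 68.9 FPKM at 72 h, 127 at 84 h, 102 at 96 h and, in the last sample, 50.9, its highest mean being that of 84 h. It stood 0.60 above its neighbours (adjusted p = 0.00155, limma). Aqp1 stood 0.65 below on the same scale (contrast -0.65, adjusted p = 0.00155, limma), but its mean of 55.6 FPKM at 84 h lay close to 60.6 at 96 h and far from 127 at 72 h. Both calls held in all 16 fits that each left out 1 library of 72 h, 84 h, 96 h or 180 h, and both were lost with 1 weight per time (adjusted p = 0.437 for each, limma). Ereg averaged 74.0, 136, 102 and 87.6 FPKM at these times and stood 0.66 above (adjusted p = 0.00571, limma), with an adjusted p of 0.0571 without replicate 3 and 0.0507 without replicate 4 of 84 h. Hspa8 averaged 1430, 2093, 1625 and 1351 FPKM and stood 0.46 above (adjusted p = 0.0161, limma), with an adjusted p of 0.0748, 0.0897 and 0.0906 without replicates 2, 3 and 4 of 84 h. Ccn2 stood 0.40 above (adjusted p = 0.00618, limma), or 0.0716 as adjusted p without replicate 3 of 84 h, and rose again later to 25.4 FPKM at 180 h.

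RNA-processing proteins and a kinase completed the named genes of this contrast. Dhx9, an RNA helicase, had 64.7, 65.7, 77.3 and 94.3 FPKM at 84 h and 50.7, 53.5, 43.8 and 48.0 FPKM at 72 h, and stood 0.59 above its neighbours (adjusted p = 0.0281, limma). Sfpq, a splicing factor of nuclear paraspeckles, had 107, 120, 128 and 140 FPKM at 84 h and 102, 99.4, 88.4 and 95.0 FPKM at 72 h, and stood 0.49 above (adjusted p = 0.0281, limma). In both genes replicate 4 was the highest of the 84 h libraries, and without it the adjusted p was 0.242 for Dhx9 and 0.206 for Sfpq. Irak2, a kinase below the interleukin-1 and Toll-like receptors, averaged 19.7 FPKM at 72 h, 15.9 at 84 h, 20.6 at 96 h and, in the last sample, 35.0, a contrast of -0.32 (adjusted p = 0.0284, limma; 0.206 without replicate 4 of 84 h). Acad11 (-0.35), Galm (-0.24) and Pcmtd2 (-0.26), which resembles a protein-repair methyltransferase, were the other named genes in this direction, and without replicate 4 of 84 h their adjusted p was 0.206, 0.242 and 0.323 in that order. Dhx9, Sfpq, Irak2, Acad11, Galm and Pcmtd2 were also lost without 4 or more other libraries each. The number of genes in this contrast was 37 without replicate 1 of 96 h, and without any of replicates 3 and 4 of 72 h, 2, 3 and 4 of 84 h and 2, 3 and 4 of 96 h it was between 2 and 8.

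Of the 53 called genes named under the rule for naming, 18 kept their call and direction in every alternative fit other than that of the 8 libraries alone. They were Il33, Gem, Spp1, Mmp10, Gldc, Rbm3, Ereg, Tlr2, Hspa8, Ccn2, Cd63 and Spry2, all higher at 84 h, and Aqp1, Slc1a4, Wwc2, Smad3, Acad11 and Galm, all lower at 84 h. Of these 18, 9 changed by at least 1.5-fold on the log2(FPKM + 1) scale: Il33, Gem, Spp1, Mmp10, Gldc, Rbm3, Ereg, Tlr2 and Aqp1. None of the 161 called genes changed direction in any of the 21 alternative fits that gave it a value. This was largely fixed in advance. In 146 of the 161 the groups did not overlap, so leaving out libraries could not reverse the change. Some other alternatives, such as plain variances, leave the change itself as it was. Other large changes rested on fewer libraries. Ints6l, a relative of a subunit of the Integrator complex, had 46.9, 48.8, 48.7 and 67.1 FPKM at 84 h and 38.5, 32.3, 25.8 and 23.2 FPKM at 72 h. Replicate 4 of 84 h was far above the rest, and without it the adjusted p was 0.0908 beside 0.0239 with it (limma), and 0.108 and 0.157 without replicates 3 and 4 of 72 h. Syne2, a linker of the nucleus to the cytoskeleton that stands on 2 lines of the files, had 8.58, 6.10, 7.70 and 6.90 FPKM at 84 h and 10.6, 11.9, 14.0 and 21.7 FPKM at 72 h. Replicate 4 of 72 h was the highest, and without it the adjusted p was 0.273 beside 0.0393 with it (limma). The Syne2 call was also lost without replicate 3 of 72 h (0.114) and replicates 2 (0.131), 3 (0.0749) and 4 (0.0816) of 84 h. Btg1, an antiproliferative protein, rose by 0.64 ± 0.14 (SE, adjusted p = 0.0101, limma), averaging 217 ± 21.2 FPKM at 84 h and 139 ± 23.9 FPKM at 72 h. Its adjusted p was 0.0560 without replicate 3 and 0.0894 without replicate 4 of 72 h.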

How the data were processed

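RNA was sequenced by the authors from 40 CHO-S samples as stranded, paired-end messenger RNA libraries, per the labels' protocols. The deposited files give FPKM for NCBI gene IDs. Per the submitters' processing notes, the authors used Cufflinks 2.2.1, SAMtools 1.0, Trimmomatic 0.32 and FastQC. The aligner, build, annotation and strand setting were not given in the sources used here, so antisense and near-identical genes may share reads.

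FPKM of lines with the same gene ID were summed (634 of 26793 IDs stand on more than 1 line), and 23 lines without an ID, all at 0, were dropped. A gene was kept when 4 or more of the 40 libraries reached 1 FPKM. This left 12259 genes, and 9221 of them have a symbol in RefSeq's table for CriGri-PICRH-1.0, which served for names alone. A 0 can be a failed estimate. Values were tested as log2(FPKM + 1), which understates changes of low genes, by limma 3.58.1 (R 4.3.3), with 1 mean for each time over all 40 libraries, trended and robust variances, two-sided tests, Benjamini-Hochberg adjustment over all genes and a threshold of 0.05. The fit was also run on simulated data with independent noise and 1 SD per gene over all times. Those data lacked the shared within-time axis and the wider spread at 84 h, so they cannot show how these affect the calls. FPKM carry no counts, so absolute depth is unknown. Library scores were compared by an exact permutation test.

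The groups, 48 gene lists (1411 members tested) and the rule for naming genes were chosen with earlier results of these data known. The rule took the 12 largest rises and falls with a symbol and groups that do not overlap, up to 4 called genes per list (or the largest change), 26 genes by name, and the 6 largest in each direction of the other 2 contrasts, giving 95 genes. Fos, one of the 26, is not analysed here, and 1 gene of the last kind is not reported here. Equal replicate numbers did not pair the libraries: the residuals of same-numbered libraries correlated at -0.499, -0.369, -0.045 and -0.492. In reversed order (replicates 1 to 4 of 84 h with 4 to 1 of 72 h) they correlated at 0.467, 0.378, 0.0361 and 0.525. The other unlike numbers gave -0.546 to 0.543, and a pairing in another order was not fitted. The alternatives were another pseudocount, filters, scaling, weights, an axis covariate, a replicate block, plain variances, a 1.5-fold minimum, 1-line genes, the 8 libraries alone, leaving out libraries and, chosen after seeing the data, 1 weight per time and leaving out replicate 4 of 84 h with replicate 1 of 96 h.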

Additional observations from a re-analysis of the deposited data

Results flagged for a closer look

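A gene was marked when 1 of the 4 libraries of a time lay far from the other 3 (the gap to the nearest over the range, above Dixon's 95% critical value). This happened in 8 of 190 groups tested, and chance alone marks about 1 in 20. The values were 67.1 FPKM for Ints6l and 9.80 FPKM for Mmp3 in replicate 4 of 84 h. At 72 h they were 42.5 FPKM for Spp1, 33.7 FPKM for Bid and 325 FPKM for Ctsb in replicate 4, 17.6 FPKM for Mt1 and 75.9 FPKM for Ddit3 in replicate 3, and 2.50 FPKM for Tlr2 in replicate 1. Bid is a death-promoting member of the BCL2 family, Mt1 a metallothionein that was listed at 0 in the other 72 h libraries, and Ddit3 the stress factor CHOP.

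A gene was also marked when its 12 h change from 72 h to 84 h differed from its mean 12 h change from 96 h to 180 h in the limma test of that difference. Among named genes the difference on the log2(FPKM + 1) scale was 1.67 for Il33, 1.29 for Gem, 1.03 for Rbm3, 0.91 for Ereg, 0.89 for Gldc and 0.87 for Spp1. It was -0.99 for Aqp1, -0.84 for Adm, -0.55 for Gnb5, a G-protein subunit, -0.49 for Acad11 and -0.47 for Slc1a4. Rbm3 moved in opposite directions, with a first step of 0.89 and a mean later step of -0.14. The calls of Il33, Gem, Rbm3, Ereg, Gldc, Aqp1, Acad11 and Slc1a4 held in all 16 fits that each left out 1 library of 72 h, 84 h, 96 h or 180 h. Those of Gnb5, Spp1 and Adm held in 14, 11 and 8 of the 16 fits. The adjusted p rose to 0.0604 for Gnb5 without replicate 4 of 84 h, and to 0.253 for Spp1 and 0.246 for Adm without replicate 4 of 72 h.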

How the results depend on the processing

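The count of 161 genes (91 higher, 70 lower) stayed within 1.5 times under another pseudocount (162), filters (156 and 144), median-ratio scaling (154), plain variances (162) and genes on 1 line (153). It became 1816 with array weights (914 higher, 902 lower), 1351 with the axis covariate (537 higher, 814 lower), 37 with 1 weight per time (25 higher, 12 lower), 33 with a 1.5-fold minimum (24 higher, 9 lower) and 2 with the 8 libraries alone (1 higher, 1 lower). Under array weights the 84 h mean rested mostly on replicate 2, whose weight was 6.42. The alternative's own construction explains the fewer genes of the fold minimum, and for the others the cause was not tested. Without replicate 4 of 84 h and replicate 2 of 72 h, 28 were lower, and without replicate 4 of 84 h and replicate 1 of 96 h, 147 were higher. Leaving out 1 library gave 53 to 210 (30 to 97 higher, 23 to 119 lower). Median-ratio scaling gave 100 higher and 54 lower. For the later pace, 88 genes (50 above 0, 38 below 0) became 1401 with array weights (820, 581), 952 with the covariate (472, 480), 27 with 1 weight per time (18, 9) and 58 without the first pair of libraries (12 below 0). Without the second pair 76 were above 0 and 24 below 0. Leaving out 1 library gave 31 to 159 (18 to 74 above 0, 13 to 85 below 0). Against both neighbours, 13 genes became 1211 with array weights, 175 with the covariate, 0 with 1 weight per time, and 2 to 37 when 1 library was left out. The difference of axis scores, -0.45, ran from -0.97 to 0.31 when 1 library was left out, changing sign without replicate 4 of 84 h (0.31, exact permutation p = 0.657). With a replicate block, although equal numbers do not pair the libraries, 153 genes were called (86 higher, 67 lower). Over the 53 called named genes and 21 alternatives, 842 of 1108 values kept their call and 266 lost it. The direction changed in 0, which was largely fixed in advance. Depth in reads is unknown, so no counting error can be given.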
